A study of Mus musculus with 16 samples.

Results

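The genes of heme synthesis and red cell iron uptake examined here were 9 in number: Alas2, Alad, Uros, Urod, Cpox, Ppox and Fech, which encode enzymes of the heme pathway, and Slc25a37 and Tfrc, which encode carriers of iron. They were taken as all probes that the array's annotation gave to these symbols, which came to 13 of 55681 probes, and the 9 genes stood among 24578 genes tested. The rule that picks them uses gene names and no measured value.

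Transcript levels had been measured on 16 Agilent 1-colour arrays in mouse cells at E11.5 of embryonic development, sorted on VE-cadherin (gene Cdh5), which joins endothelial cells, and on the leukocyte protein CD45 (gene Ptprc). The 8 groups had 2 arrays each: Tie-2-Etv2 and control VE-cadherin-positive cells that were CD45- or CD45+, of the yolk sac or the embryo proper. In Tie-2-Etv2 embryos an Etv2 transgene was switched on by a Cre transgene that the promoter of the endothelial receptor gene Tie-2 drives. Etv2 is an ETS-family transcription factor that the earliest blood and endothelial cells need. All animals were of mixed strain (B6/CBA and others), and the labels do not say which of the transgenes the controls carried, nor whether the arrays of a group came from separate litters or pools. The p-values therefore measure only how far these arrays differ, and that spread may be technical. For CD45- embryo cells the transgenic titles say Tie-2 without Etv2, while the genotype label is Tie-2-Etv2.

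Heme is built in a chain of reactions that begins in the mitochondrion with 5-aminolevulinate synthase, passes through the cytosol, and ends in the mitochondrion when ferrochelatase puts iron into protoporphyrin. Red cell precursors use their own synthase, encoded by Alas2, take up transferrin-bound iron through the transferrin receptor, and move the iron into mitochondria through mitoferrin 1. The later enzymes of the chain and the transferrin receptor serve heme and iron supply in many other dividing cells, while Alas2 and mitoferrin 1 are best known from red cell precursors, which in the yolk sac lie close to the endothelium.

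Sequences of probes and promoters are shown next for genes of the findings. Alas2, Slc25a37 and Tfrc gave the contrasts that the results turn on, and Alad and Uros were among the genes that rose. The gene-level tests of Slc25a37 and Tfrc rest on their brightest probes, which are not printed. The Alas2 probe lies at chrX:147004993-147005052 (+ strand), the shown Slc25a37 probe at chr14:69902797-69902856 (- strand), and the shown Tfrc probes at chr16:32620470-32620529 and chr16:32624877-32625093 (+ strand), all on mm9, the build of the files. The last of these spans 217 bases of genome for a probe of 60 bases. Exon annotation of that build was not used here.
Alas2 probe: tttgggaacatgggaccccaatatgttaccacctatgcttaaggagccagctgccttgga
Slc25a37 second probe: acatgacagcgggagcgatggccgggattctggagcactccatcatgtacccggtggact
Tfrc second probe: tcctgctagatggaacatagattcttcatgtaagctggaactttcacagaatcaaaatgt
Tfrc dimmest probe: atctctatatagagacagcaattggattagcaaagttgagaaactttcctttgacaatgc

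Promoters were read as the 250 bases before the annotated start of transcription, from RefSeq on GRCm38.p6, and were found for 7 of the 9 genes, in 10 windows. The letters AGATAA, bound by GATA factors, occurred on either strand in 9.99% of 32851 promoters, the letters CCGGAA, bound by ETS factors, in 12%, and the letters CCACACCC, bound by KLF factors, in 3.2%. Among the 10 windows 1 held the GATA letters, that of Alas2, and 2 held the ETS letters, 1 of Alad and 1 of Uros. Alad and Uros each had another window, from another annotated start, which held no match. The Alas2 promoter at chrX:150547167-150547416 (+ strand) is printed whole, and 30 bases around the match are printed for Alad (chromosome 4) and Uros (chromosome 7), with the matched letters in capitals. The matches are written as read on the opposite strand, as TTATCT and TTCCGG, and ended 81, 46 and 15 bases before the start in Alas2, Alad and Uros. A match describes the letters only.
Alas2 promoter: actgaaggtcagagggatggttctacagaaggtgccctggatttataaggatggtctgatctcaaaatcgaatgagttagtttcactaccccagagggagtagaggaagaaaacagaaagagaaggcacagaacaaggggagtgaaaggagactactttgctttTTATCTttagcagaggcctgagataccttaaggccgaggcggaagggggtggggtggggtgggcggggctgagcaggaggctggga
Alad, around its ETS letters: tacgggagccgcTTCCGGgtgagccgcccc
Uros, around its ETS letters: ccgcccccgtccTTCCGGactctctctaag

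A level here is the log2 of a probe's processed signal minus the 75th percentile of its array, so values compare 1 probe across arrays and never 1 probe with another. Of all probes, 50.6% to 59.9% were well above background on each array, and all 13 probes of the 9 genes were so on all 16 arrays. Across genes, the Pearson correlation between replicate arrays was 0.975 to 0.992, and the number of arrays limits the precision. In each of the 4 populations the Etv2 level was higher on both Tie-2-Etv2 arrays (lowest 0.11) than on both control arrays (highest -0.13). Ptprc lay between 2.06 and 3.56 in CD45+ cells, against -5.55 to -2.92 in CD45- cells. Cdh5 lay between 4.72 and 5.99 in CD45- cells, was 1.65 to 3.13 in CD45+ Tie-2-Etv2 cells, and was -0.66 to 0.33 in CD45+ control cells, the lowest of the sorted VE-cadherin-positive groups. All embryo arrays were on 1 slide and all yolk sac arrays on another, so tissue cannot be told apart from slide and scan. Within a slide CD45- and CD45+ arrays lay in different rows and Tie-2-Etv2 and control arrays in different columns, so position cannot be told apart from gate or genotype.

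**Figure D1:**
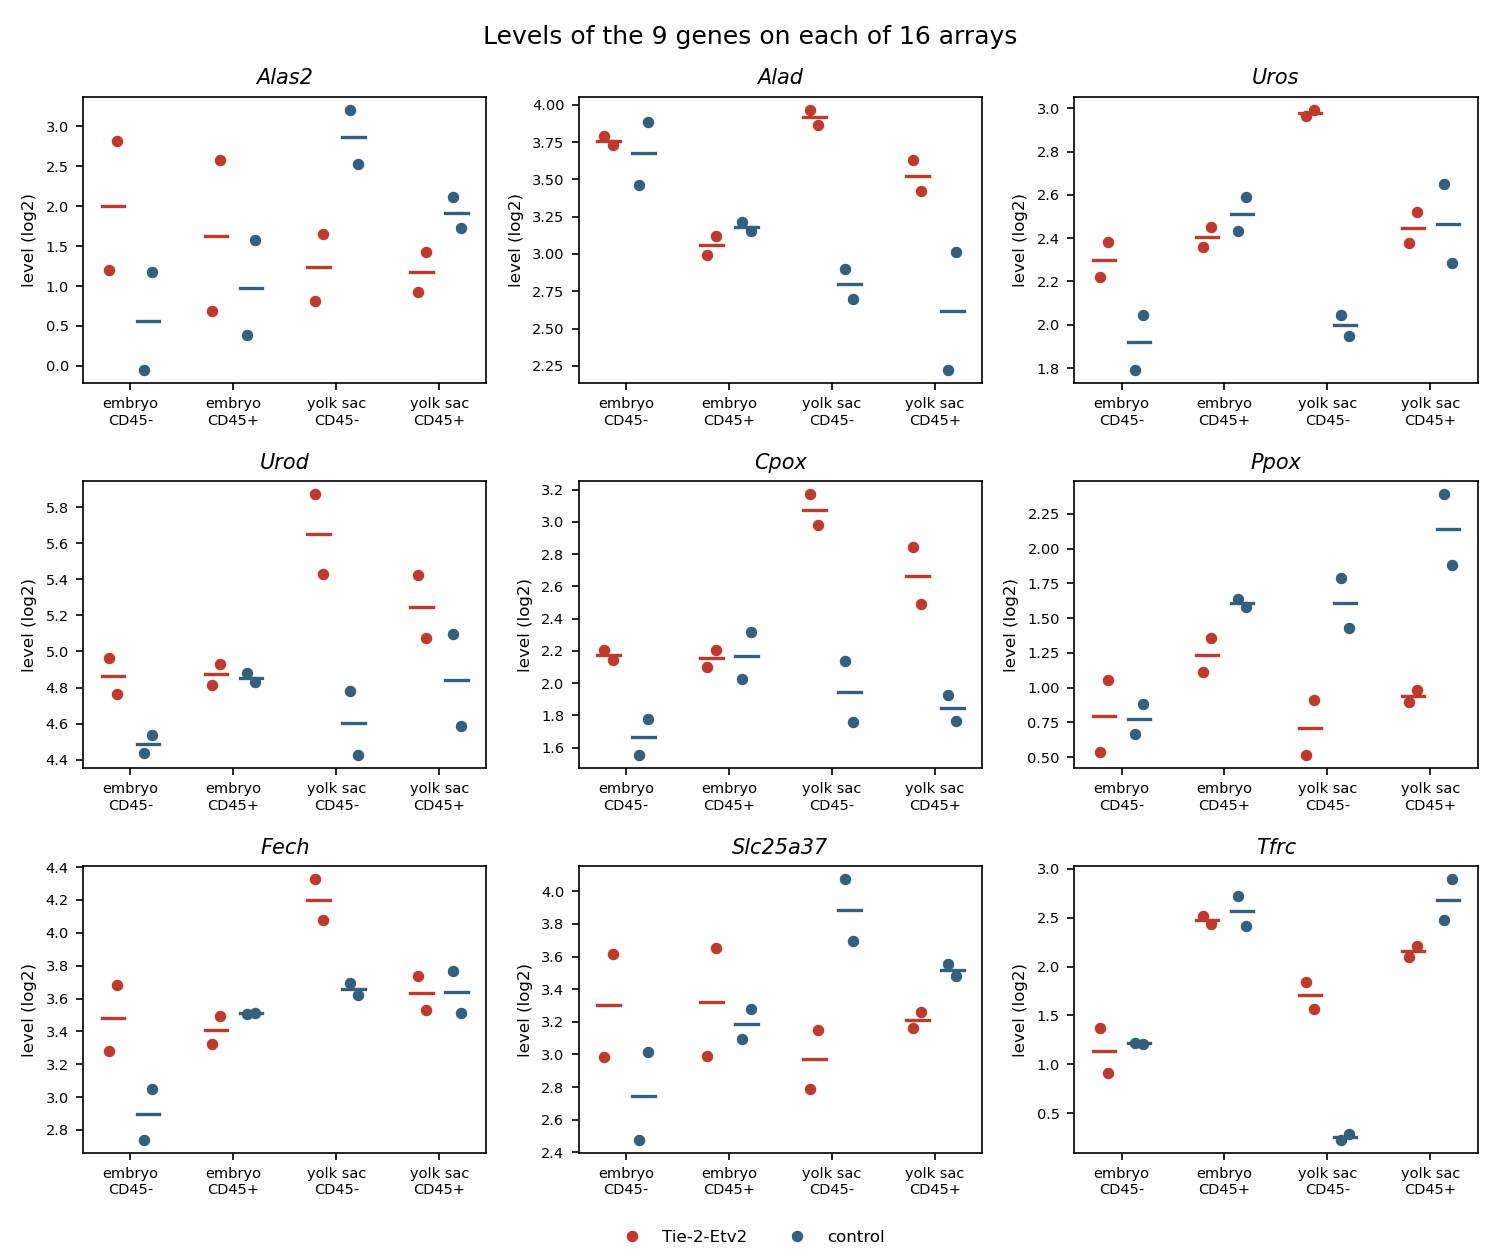
Level (log2 of the processed signal minus the array's 75th percentile) of the brightest probe of each of the 9 genes, by population on the x axis, with Tie-2-Etv2 arrays in red and control arrays in blue. Points are arrays and bars are means of 2 arrays; in yolk sac CD45- cells the 2 genotypes do not overlap for any of the 9 genes, with 6 genes higher and 3 lower on the Tie-2-Etv2 arrays.

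In CD45- cells of the yolk sac, most of the enzymes after the first step, and the transferrin receptor gene, were higher in Tie-2-Etv2 than in control cells. Alad, Uros, Urod, Cpox, Fech and Tfrc rose by 0.54 to 1.45 on the log2 scale, while Ppox and Slc25a37 fell by 0.90 and 0.91. Alas2 was lower on both Tie-2-Etv2 arrays, but its difference did not pass the test. The counts were 6 genes higher and 2 lower of 9, where 26.1% of all genes tested were called higher, 15.8% lower and 41.9% in either direction (limma, Benjamini-Hochberg adjusted p below 0.05). The 9 genes had a median difference of 0.98, against 0.175 over all genes. Without control replicate 1, or without Tie-2-Etv2 replicate 1, 5 of the 9 genes were called.

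Alas2, the first enzyme of red cell heme synthesis, had levels of 0.82 and 1.65 in Tie-2-Etv2 yolk sac CD45- cells, against 3.21 and 2.52 in control cells. Both Tie-2-Etv2 arrays were thus below both control arrays, and the difference was -1.64 ± 0.73 (SE), with an adjusted p of 0.0972. Alas2 had the widest gaps between arrays of a group among the 9 genes, with a median gap of 1.01 and a highest of 1.89. It passed in 3 of 15 alternative settings, with adjusted p-values from 0.0178, when only the 8 yolk sac arrays were fitted, to 0.357.

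Alad encodes aminolevulinate dehydratase, which joins the product of the synthase into porphobilinogen. Its levels were 3.97 and 3.86 in Tie-2-Etv2 cells and 2.90 and 2.70 in control cells, a difference of 1.12 ± 0.24 (adjusted p = 0.0044), or 2.17-fold. The genotypes did not overlap, and the gap between them was wider than the gap within either. Uros, the synthase that closes the ring as uroporphyrinogen III, stood at 2.97 and 2.99 in Tie-2-Etv2 cells, against 2.04 and 1.95 in control cells (0.98 ± 0.17, adjusted p = 0.00116). A second Uros probe differed by 0.44 with an adjusted p of 0.261 over all probes.

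Urod removes carboxyl groups from the ring. It had levels of 5.87 and 5.43 in Tie-2-Etv2 cells, against 4.78 and 4.43 in control cells (1.05 ± 0.23, adjusted p = 0.00428). Cpox, coproporphyrinogen oxidase, read 3.17 and 2.98 in Tie-2-Etv2 cells, against 2.14 and 1.76 in control cells (1.13 ± 0.20, adjusted p = 0.00118). Both enzymes were therefore about as much higher as Alad and Uros, and over the 8 group means Urod and Cpox had a correlation of 0.968, given as a description of 8 points that share the arrays and their scaling.

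Ppox, protoporphyrinogen oxidase, which acts directly after coproporphyrinogen oxidase, went the other way. Its levels were 0.52 and 0.91 in Tie-2-Etv2 cells, against 1.79 and 1.43 in control cells, and the difference was -0.90 ± 0.24 (adjusted p = 0.0137). It lost its call without control replicate 1 (adjusted p = 0.102) or without Tie-2-Etv2 replicate 1 (0.11), in a range of 0.00295 to 0.11 over 15 alternatives. Fech, ferrochelatase, which ends the pathway, was higher by 0.54 ± 0.19 (adjusted p = 0.0448), with levels of 4.33 and 4.08 in Tie-2-Etv2 cells, against 3.70 and 3.62 in control cells. That call was the least firm of the 8: it was lost in 9 of 15 alternatives, among them every setting that left out an array, and the difference was 0.17 after quantile normalization and 0.23 when arrays were scaled on probes detected everywhere.

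Slc25a37 encodes mitoferrin 1, the iron importer of red cell mitochondria. Its brightest probe read 2.79 and 3.15 in Tie-2-Etv2 cells, against 4.07 and 3.69 in control cells, a difference of -0.91 ± 0.29 (adjusted p = 0.0285). It was lower on both Tie-2-Etv2 arrays, as Alas2 was. Its second probe, printed above, differed by -0.78 with an adjusted p of 0.0669 over all probes. The call was lost without control replicate 1 (adjusted p = 0.164) or without Tie-2-Etv2 replicate 1 (0.167), in a range of 0.00933 to 0.167 over 15 alternatives.

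Tfrc, the receptor that brings transferrin-bound iron into cells, had the largest difference among the called genes. Its brightest probe had levels of 1.84 and 1.57 in Tie-2-Etv2 cells, against 0.23 and 0.28 in control cells, a difference of 1.45 ± 0.21 (adjusted p = 0.000383), or 2.73-fold. The second probe differed by 1.62 and the dimmest by 1.65, with adjusted p-values over all probes of 0.00092 and 0.00586. All 3 probes therefore moved the same way, and the brightest passed in all 15 alternatives, as did Alad, Uros, Urod and Cpox.

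The median of all genes in this comparison moved with the scaling: it was 0.175 as scaled here, 0.0588 after quantile normalization, 0.0169 after normexp background correction and -0.14 with scaling on detected probes. With scaling on detected probes 4066 genes were called higher and 5618 lower, against 6405 higher and 3882 lower as scaled here. Relative to the median of all genes, Tfrc was higher by 1.27, Cpox by 0.95, Alad by 0.94, Urod by 0.87, Uros by 0.81 and Fech by 0.37. On the same footing Ppox was at -1.07, Slc25a37 at -1.09 and Alas2 at -1.81. No member changed sign in this comparison under any scaling tried.

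**Figure D2:**
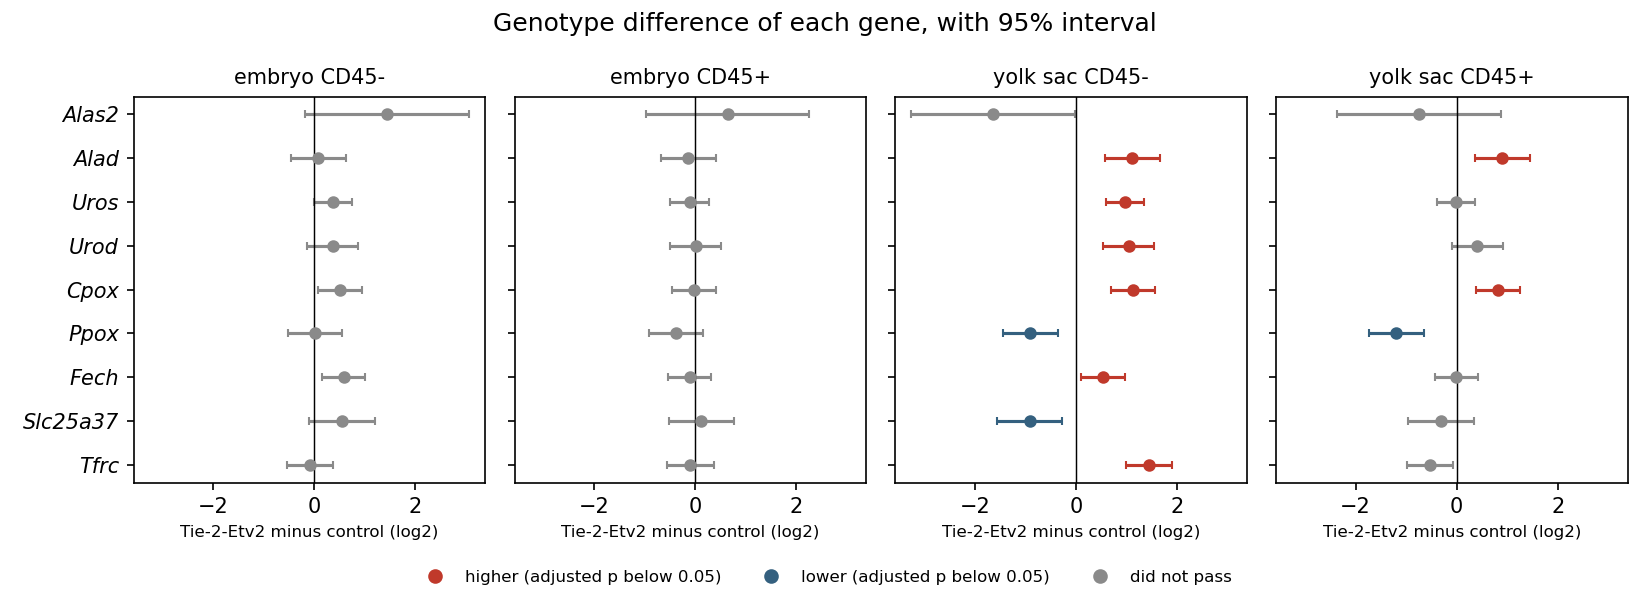
Difference of each gene (brightest probe) between Tie-2-Etv2 and control arrays on the log2 scale, with its 95% interval from the fit over 16 arrays, in 4 populations. Red points were higher and blue points lower at an adjusted p below 0.05, and grey points did not pass. In yolk sac CD45- cells 8 of the 9 genes passed, where 41.9% of all genes did, and in yolk sac CD45+ cells 3, where 32.5% did. In the embryo 0 passed, where 1.29% of all genes did in CD45- cells and 3.01% in CD45+ cells. The counts of 3 and 0 lie near these shares.

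Among yolk sac CD45+ cells, 2 of the 9 rose and 1 fell with Tie-2-Etv2, where 18.1% of all genes were called higher, 14.4% lower and 32.5% in either direction. This count lies at the background and is not a result about the 9 genes as a set. Without Tie-2-Etv2 replicate 1, 1 of the 9 genes was called. Alad rose by 0.91 ± 0.24 (adjusted p = 0.0162) and Cpox by 0.82 ± 0.20 (0.00875), and Ppox fell by 1.20 ± 0.24 on the log2 scale (difference -1.20, adjusted p = 0.00374). Alad read 3.63 and 3.42 in Tie-2-Etv2 cells, against 2.22 and 3.02 in control cells. Cpox read 2.84 and 2.49 in Tie-2-Etv2 cells, against 1.93 and 1.76 in control cells.

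Ppox was low on both Tie-2-Etv2 arrays, at 0.90 and 0.98, against 2.39 and 1.89 in control cells, and its call held in all 15 alternatives. The Alad call was lost in 4 of 15 alternatives, among them the fit of the yolk sac arrays alone (adjusted p = 0.0518, in a range of 0.00184 to 0.148) and the fits without control replicate 1 (difference 0.51, adjusted p = 0.115) or without Tie-2-Etv2 replicate 1 (0.103). The Cpox call was lost in 2 of 15, without Tie-2-Etv2 replicate 1 (adjusted p = 0.0859) and with the compared groups alone (0.0809), in a range of 0.00306 to 0.0859.

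The transferrin receptor gene did not follow these enzymes in CD45+ cells. Tfrc read 2.09 and 2.21 in Tie-2-Etv2 cells, against 2.47 and 2.89 in control cells, a difference of -0.53 ± 0.21 with an adjusted p of 0.0774. It passed as lower under 3 of 15 alternatives, with adjusted p-values from 0.0414 to 0.345. The second Tfrc probe differed by -0.40 and the dimmest by -0.27, with adjusted p-values over all probes of 0.299 and 0.642. Whether the Tfrc differences in CD45- and CD45+ cells of the yolk sac differ from each other was not tested.

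The other 5 genes had values in yolk sac CD45+ cells as follows. Uros differed by -0.02 and Fech by -0.00, with 95% intervals of -0.40 to 0.36 and -0.43 to 0.42. Urod differed by 0.41 (adjusted p = 0.204), Slc25a37 by -0.31 (0.463) and Alas2 by -0.74 (0.479). Alas2 and Slc25a37 were again lower on both Tie-2-Etv2 arrays: Alas2 had 0.92 and 1.42 in Tie-2-Etv2 cells, against 2.11 and 1.72 in control cells, and Slc25a37 had 3.16 and 3.26 in Tie-2-Etv2 cells, against 3.55 and 3.48 in control cells.

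In the embryo proper none of the 9 genes passed in either gate. In CD45- cells 0 of 9 were called, where 1.29% of all genes were, 1.25% higher and 0.0325% lower. In CD45+ cells 0 of 9 were called, where 3.01% were, 2.29% higher and 0.712% lower, and 0 of 9 had an unadjusted p below 0.05 in limma's fit. At these shares a count of 0 lies near the background and is not a result about the 9 genes. In CD45- cells 3 of the 9 95% intervals nevertheless lay above 0, those of Fech (0.16 to 1.02), Cpox (0.07 to 0.94) and Uros (0.00 to 0.76), all with an unadjusted p below 0.05 in limma's fit.

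For CD45- embryo cells Alas2 read 1.20 and 2.82 in Tie-2-Etv2 cells, against -0.05 and 1.17 in control cells, a difference of 1.45 ± 0.73 (adjusted p = 0.801). Its Tie-2-Etv2 arrays were both above its control arrays, which is the opposite order from the yolk sac. Fech differed by 0.59 (adjusted p = 0.389), Slc25a37 by 0.55 (0.835) and Cpox by 0.51 (0.575). Tfrc had 1.37 and 0.91 in Tie-2-Etv2 cells, against 1.22 and 1.21 in control cells, so that its arrays overlapped and its interval was -0.54 to 0.38.

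For CD45+ embryo cells Alas2 read 0.69 and 2.57 in Tie-2-Etv2 cells, against 0.39 and 1.57 in control cells, with overlap. Ppox had 1.11 and 1.36 in Tie-2-Etv2 cells, against 1.64 and 1.58 in control cells, a difference of -0.37 (adjusted p = 0.53). The other 7 genes differed by -0.13 to 0.13.

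The genotype differences of yolk sac and embryo were then compared directly, as the Tie-2-Etv2 effect in the yolk sac minus that in the embryo. In CD45- cells 1 gene was called higher and 1 lower, where 9.54% of all genes were called higher, 6.4% lower and 15.9% in either direction. The effect on Tfrc was 1.53 ± 0.29 higher in the yolk sac (adjusted p = 0.00906, past the threshold in all 18 alternatives). The second Tfrc probe differed by 1.35 and the dimmest by 1.23, with adjusted p-values over all probes of 0.0397 and 0.15. The effect on Slc25a37 was lower in the yolk sac by 1.47 on the log2 scale (difference -1.47 ± 0.41, adjusted p = 0.0377), and its second probe differed by -1.06 (adjusted p over all probes 0.13).

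The Slc25a37 call was lost in 7 of 18 alternatives, 5 of them settings that left out 1 array: either yolk sac control replicate, yolk sac Tie-2-Etv2 replicate 1, embryo control replicate 1 or embryo Tie-2-Etv2 replicate 2. Adjusted p-values ranged from 0.0192 to 0.136 over the 18 alternatives. The Alas2 effect was lower by 3.08 ± 1.03 in the yolk sac (difference -3.08), with an adjusted p of 0.0682, and it passed in 4 of 18 alternatives, from 0.0292 to 0.214. In CD45+ cells 0 of 9 genes passed, where 3.13% of all genes did, 1.1% higher and 2.03% lower, and 3 of the 9 had an unadjusted p below 0.05 in limma's fit. Since each tissue is on its own slide, these differences cannot be told apart from a difference between slides in how the genotypes were measured.

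The CD45 gate was compared next, within each tissue and genotype. These comparisons use the arrays of the genotype comparisons again and are given for the genes' own values. Tfrc was higher in CD45+ than in CD45- cells in 3 of the 4 comparisons. In control yolk sac it read 2.47 and 2.89 in CD45+ cells, against 0.23 and 0.28 in CD45- cells, a difference of 2.43 ± 0.21 (adjusted p = 6.76e-06), or 5.38-fold, and it was the only 1 of the 9 genes called there, where 22.6% of all genes were called higher, 15.8% lower and 38.4% in either direction. Without CD45+ control replicate 2 the count was 2.

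In Tie-2-Etv2 yolk sac Tfrc read 2.09 and 2.21 in CD45+ cells, against 1.84 and 1.57 in CD45- cells, a difference of 0.45 with a 95% interval of -0.01 to 0.91 (adjusted p = 0.268). There 0 of the 9 genes passed, where 4.46% of all genes were called higher, 5.93% lower and 10.4% in either direction, and 2 of the 9 had an unadjusted p below 0.05 in limma's fit. In the embryo the Tfrc differences were 1.34 ± 0.21 in Tie-2-Etv2 cells (adjusted p = 0.000647) and 1.35 ± 0.21 in control cells (0.000452). The second Tfrc probe differed there by 0.85 and 1.04 (adjusted p over all probes 0.0362 and 0.0112). The dimmest differed by 0.91 and 1.12 (0.0987 and 0.0395), and so did not pass in Tie-2-Etv2 embryo cells.

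Tfrc was the 1 member called in Tie-2-Etv2 embryo cells, where 16.4% of all genes were called higher, 13.9% lower and 30.3% in either direction. In control embryo cells 4 genes were higher in CD45+ than in CD45- cells and 0 lower, where 20% of all genes were called higher, 16.6% lower and 36.6% in either direction. Beside Tfrc these were Ppox (0.83, adjusted p = 0.0209), Fech (0.61, 0.0289) and Uros (0.59, 0.0189, second probe 0.41 with an adjusted p over all probes of 0.326). Each of those 3 lost its call in at least 5 of 14 alternatives, with adjusted p-values up to 0.105, 0.216 and 0.23, and each lost it without embryo CD45- control replicate 1 or without embryo CD45+ control replicate 2, when Tfrc alone was called. Without embryo CD45+ control replicate 1 the calls of Ppox and Fech were lost as well, and 2 genes were called.

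**Figure D3:**
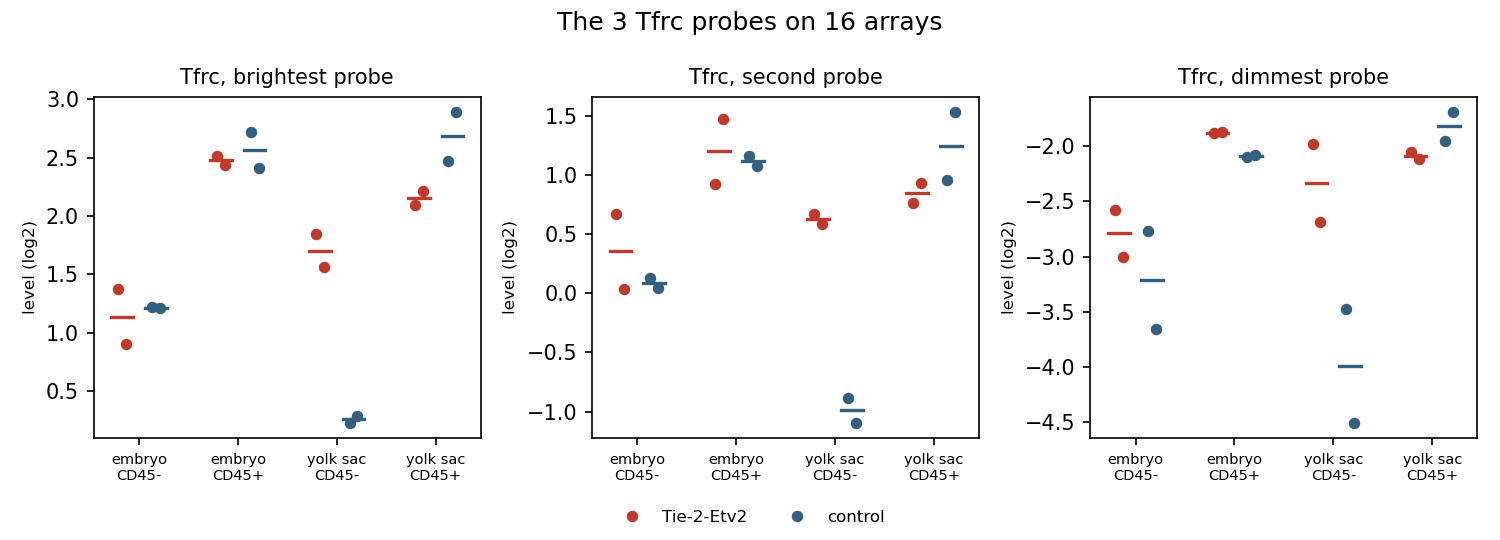
Levels (log2) of the 3 Tfrc probes on each array, by population, with Tie-2-Etv2 arrays in red, control arrays in blue and bars at the mean of 2 arrays. By its mean, the control CD45- group of the yolk sac is the lowest on each probe, and the mean of Tie-2-Etv2 CD45- yolk sac cells lies between it and those of the CD45+ groups.

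In the order of its 8 group means Tfrc was highest in CD45+ control yolk sac cells (2.68 ± 0.29, SD, n = 2) and lowest in CD45- control yolk sac cells (0.26 ± 0.04, n = 2). The 3 highest groups, CD45+ control cells of the yolk sac and the embryo and CD45+ Tie-2-Etv2 embryo cells, overlapped among neighbours and stood apart from the group below them. CD45+ and CD45- Tie-2-Etv2 yolk sac cells followed at 2.15 and 1.70, and each stood apart from the next. The genes whose 8 group means were most like those of Tfrc, among 11918 genes with a symbol that spanned at least 1 log2 unit, were Ndufb8, a subunit of respiratory complex I, with a Pearson correlation of 0.9965, then Gm7160 (0.9946), 4930404N11Rik (0.9901), Ocrl, an inositol phosphatase (0.9895), and Esrra, a nuclear receptor of mitochondrial genes (0.9875).

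Alas2 was highest in CD45- control yolk sac cells (2.87 ± 0.49, SD, n = 2) and lowest in CD45- control embryo cells (0.56 ± 0.86, n = 2), and every neighbouring pair in its order overlapped. The genes most like it over the 8 group means were Hba-x, the embryonic zeta globin gene (0.9878), Hba-a1, an adult alpha globin gene (0.983), Hbq1b, a theta globin gene (0.97), Hsd3b6, a steroid dehydrogenase (0.9609), and Hba-a2, the other adult alpha globin gene (0.9434). The adult alpha globin genes are near-identical copies, so their probes may share targets. Slc25a37 correlated with Alas2 at 0.93 over the same 8 means. These are descriptions over 8 points that share arrays and scaling.

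By their brightest probes, Alas2 and Slc25a37 also moved with the globin gene between the arrays of a group. Hba-x read 5.60 and 6.33 in Tie-2-Etv2 CD45- cells of the yolk sac, against 7.90 and 7.105 in control cells. By the brightest probes, in 8 of 8 groups the array with more Hba-x was the array with more Alas2, Slc25a37 and Uros. For Tfrc the same held in 1 of 8 groups, for Alad in 3, for Urod in 4, for Cpox in 5, for Fech in 6 and for Ppox in 7. The summed level of the erythroid genes, a list of 24 tested genes that includes Hba-x and other bright globin genes, gave the same counts. The median level of the list gave another order. It was 7 of 8 for Fech, 6 for Alad and Cpox, 5 for Alas2, Slc25a37, Uros and Urod, 4 for Ppox and 2 for Tfrc. The second Slc25a37 probe was lower on the array with more Hba-x in control embryo cells of each gate and in yolk sac CD45+ cells of each genotype. The second Uros probe was so in CD45+ control embryo cells and in Tie-2-Etv2 yolk sac cells of each gate.

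**Figure D4:**
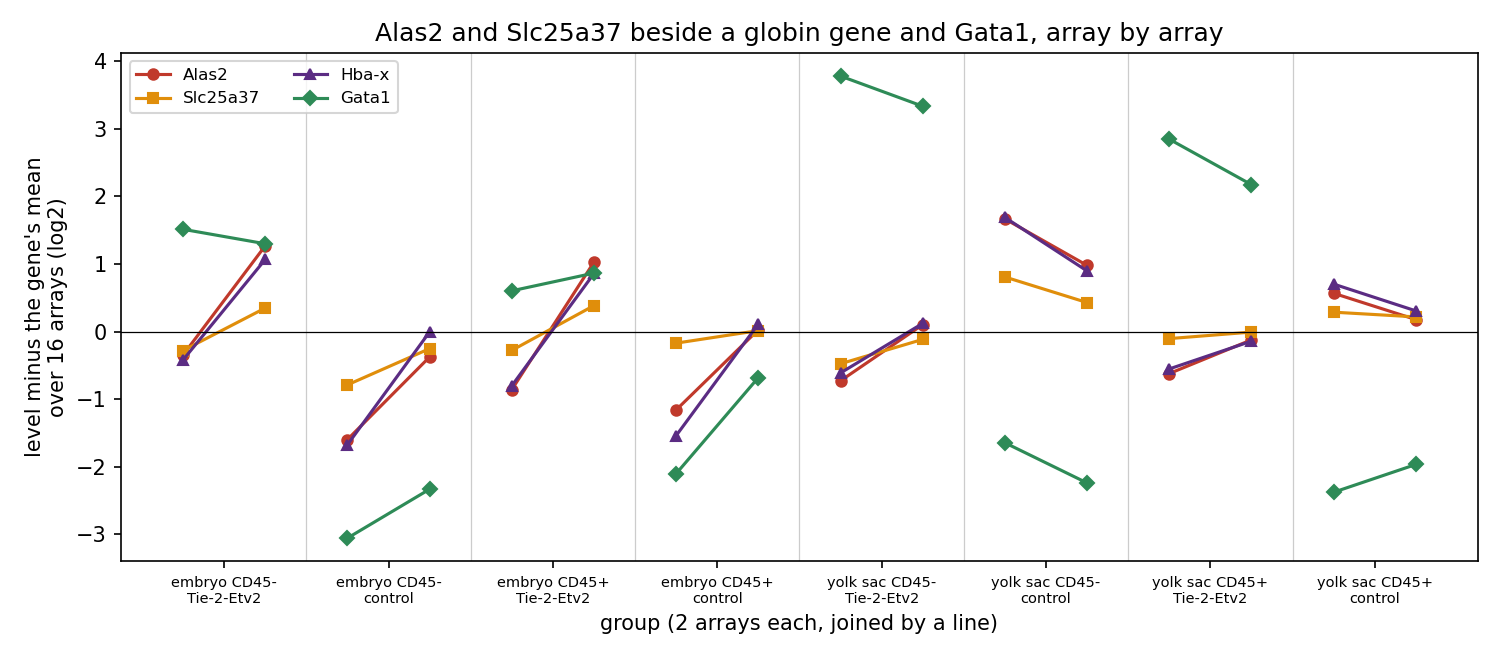
Levels of Alas2, Slc25a37, the embryonic globin gene Hba-x and Gata1 on each of 16 arrays, as the difference from the gene's own mean over the arrays (log2). The 2 arrays of a group are joined by a line. Alas2, Slc25a37 (brightest probe) and Hba-x have the same slope sign in all 8 groups, while Gata1 is above its mean on all Tie-2-Etv2 arrays and below it on all control arrays.

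Erythroid genes were measured beside the 9 genes as a check. In yolk sac CD45- cells 3 of 24 rose and 5 fell with Tie-2-Etv2, where 26.1% of all genes were called higher and 15.8% lower. Gata1, the erythroid and megakaryocytic regulator, rose by 5.50 ± 0.45 (adjusted p = 1.27e-05), Nfe2 by 4.2 (6.28e-05) and the erythropoietin receptor gene Epor by 1.22 (0.00707). Among the 5 that fell were Cldn13 (-2.40 on the log2 scale, adjusted p = 0.000619), the red cell surface gene Kel (-1.81, 0.0443) and Add2 (-1.79, 0.0121). The summed erythroid level was 9.52 and 10.05 in Tie-2-Etv2 cells, against 10.77 and 10.25 in control cells.

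In yolk sac CD45+ cells 2 of 24 rose and 3 fell, where 18.1% of all genes were called higher and 14.4% lower, and Epor fell by 2.38 on the log2 scale (-2.38, adjusted p = 0.000194). The summed erythroid level there was 9.59 and 9.72 in Tie-2-Etv2 cells, against 10.42 and 9.97 in control cells. In embryo CD45- cells it was 9.68 and 10.53 in Tie-2-Etv2 cells, against 8.65 and 9.65 in control cells. Alas2 and this sum thus had the same order of genotypes in these populations. In bulk RNA of sorted cells, fewer red cell precursors and less of a transcript per cell cannot be told apart, and the part of red cell RNA in these differences was not tested.

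Markers of other cell types moved with genotype as well. In yolk sac CD45- cells 9 of 10 megakaryocyte genes were higher in Tie-2-Etv2 cells and 0 lower. There 10 of 10 pan-leukocyte genes were higher and 7 of 11 endothelial genes lower, where 26.1% of all genes were called higher and 15.8% lower. The summed megakaryocyte level was 9.83 and 9.50 in Tie-2-Etv2 cells, against 2.62 and 3.03 in control cells, and the summed endothelial level was 9.35 and 9.37 in Tie-2-Etv2 cells, against 10.13 and 9.96 in control cells. All 15 cell division genes were higher, with a median of 1.03, close to the median of 0.98 of the 9 genes. Aurkb, among these 15, was well above background on 1 Tie-2-Etv2 array and on 0 control arrays. In yolk sac CD45+ cells 6 of 15 were higher with a median of 0.61, where 18.1% of all genes were called higher and 14.4% lower. In yolk sac CD45+ cells 11 of 11 macrophage genes were lower in Tie-2-Etv2 cells, with a median of -3.47, and their summed level was 7.31 and 7.61 in Tie-2-Etv2 cells, against 11.16 and 10.78 in control cells. There 8 of 11 endothelial genes were higher and 1 lower (median 2.58), 7 of 8 granulocyte and mast cell genes were higher and 0 lower (median 4.94), and 7 of 10 megakaryocyte genes were higher and 3 lower. In embryo CD45- cells 7 of 10 pan-leukocyte and 7 of 10 megakaryocyte genes were higher and 0 lower, where 1.25% of all genes were called higher.

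The summed level of 10 yolk sac endoderm and liver genes was 6.20 and 8.99 in Tie-2-Etv2 CD45- cells of the yolk sac, against 9.21 and 9.08 in control cells. The low array was Tie-2-Etv2 replicate 1. Leaving it out leaves 1 Tie-2-Etv2 array in that group, so that setting cannot tell this low level apart from the loss of an array. The part of these cell types, and of cell division, in the values of the 9 genes was not tested.

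The remaining steps and helpers of heme synthesis were followed as a list of 16 genes, with Alas1, mitochondrial transporters and suppliers of glycine. In yolk sac CD45- cells 8 of 16 rose and 2 fell with Tie-2-Etv2, with a median of 0.48 against 0.175 for all genes. Of all genes, 26.1% were called higher there and 15.8% lower. Shmt2, the mitochondrial enzyme that makes glycine from serine, rose by 2.38 ± 0.19 (adjusted p = 1.11e-05), and Sfxn1, the mitochondrial serine carrier, by 2.05 ± 0.17 (1.39e-05). Iba57, which helps build iron-sulfur proteins, rose by 1.52, while Fam210b, which promotes mitochondrial iron import in red cell precursors, fell by 0.95 on the log2 scale (-0.95) and Pgrmc1, a heme-binding partner of ferrochelatase, by 0.58 (-0.58).

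In yolk sac CD45+ cells 5 of 16 were higher and 1 lower, with a median of -0.09 against 0.0384 for all genes. Of all genes, 18.1% were called higher there, 14.4% lower and 32.5% in either direction, so the count lies near the background. Sfxn1 rose by 1.44 and Shmt2 by 1.36, and Snx3, which returns the transferrin receptor to the cell surface, fell by 1.23 on the log2 scale (-1.23, adjusted p = 0.000159). In the embryo 0 of 16 passed in either gate, where 1.29% of all genes were called in CD45- cells and 3.01% in CD45+ cells. A count of 0 lies near the background there.

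Iron-sulfur cluster assembly, which feeds on mitochondrial iron as ferrochelatase does, had 10 of 12 genes higher and 0 lower in yolk sac CD45- cells, with a median of 1.00. Of all genes, 26.1% were called higher there and 15.8% lower. Nfs1, the sulfur donor, rose by 1.51 (adjusted p = 8.48e-05), the ferredoxin reductase gene Fdxr by 1.42 and the chaperone gene Hspa9 by 1.315. In yolk sac CD45+ cells 7 of 12 were higher and 0 lower, with a median of 0.80, and Fdxr rose by 1.07 (adjusted p = 0.00245). Of all genes, 18.1% were called higher there and 14.4% lower. In the embryo 0 of 12 passed, where 1.29% of all genes were called in CD45- cells and 3.01% in CD45+ cells, so that count lies near the background.

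Genes of cellular iron uptake, storage and export, 21 tested, went in both directions. In yolk sac CD45- cells 4 were higher and 6 lower, where 41.9% of all genes were called, so the count is near the background. In yolk sac CD45+ cells 2 were higher and 10 lower, where 18.1% of all genes were called higher and 14.4% lower. Exoc6, an exocyst subunit needed for transferrin cycling in red cell precursors of the mouse, rose by 2.42 ± 0.20 in CD45- cells (adjusted p = 1.29e-05) and by 1.76 ± 0.20 in CD45+ cells (0.00012). It was also higher in CD45+ embryo cells, by 1.01 (adjusted p = 0.0219). Slc11a2, the iron exporter of endosomes, was higher by 0.87 in yolk sac CD45- cells and lower by 0.99 on the log2 scale in embryo CD45+ cells (-0.99, adjusted p = 0.0316).

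Hfe, a partner of the transferrin receptor, fell by 2.31 on the log2 scale in yolk sac CD45- cells (-2.31, adjusted p = 0.0011) and by 3.86 in CD45+ cells (-3.86, 6.86e-05). Slc40a1, the iron exporter ferroportin of macrophages, fell by 3.36 in yolk sac CD45+ cells (-3.36, 0.00228), where the macrophage genes were lower.

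Genes of heme export, uptake and breakdown, 12 in all, had 3 higher and 4 lower in yolk sac CD45- cells, where 26.1% of all genes were called higher and 15.8% lower. In yolk sac CD45+ cells 1 was higher and 6 lower, where the shares of all genes were 18.1% and 14.4%. Slc48a1, a heme carrier of endosomes and lysosomes, rose by 2.20 ± 0.25 in CD45- cells (adjusted p = 9.78e-05). Hmox1, the heme oxygenase induced in macrophages that clear red cells, fell by 3.23 on the log2 scale in CD45+ cells (-3.23, 0.000248). Blvrb, a biliverdin reductase, fell by 2.71 there (-2.71, 1.71e-05) and by 1.055 in CD45+ embryo cells (-1.055, 0.0238), the 1 gene of the list called in the embryo.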

How the data were processed

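Agilent 1-colour arrays of 8 groups with 2 arrays each were analysed. Per the file headers, the authors' scans were read with Agilent Feature Extraction 10.7, whose deposited processed signal is a background-subtracted intensity on a linear scale. The authors' deposited value table holds log2 values of the same arrays, centred per probe within tissue and gate; its column medians lay between -0.18 and 0.17, its direction was that of the scanner values, and it served only as an alternative for the genotype comparisons.

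The level of a probe was log2 of the processed signal minus the array's 75th percentile. Control spots were left out, as were spots with outlier flags, which removed 87 of 55681 probes, and spots of a probe were averaged. Probes not well above background on every array of at least 1 group were dropped, and a gene was taken as its brightest probe. This left 34126 probes and 24578 genes, of which 16531 had a symbol. Names came from RefSeq (GRCm38.p6), with 26533 probes matched by accession and 3 further kinds of match giving 2601, 473 and 39. The remaining 25948 probes kept the gene name of the array's annotation, or their probe name where that was empty. Probes that shared a name counted as 1 gene. limma 3.58.1 in R 4.3.3 fitted the 8 group means over all 16 arrays (8 residual degrees of freedom, prior 2.29) and moderated tests were adjusted by Benjamini-Hochberg over all genes, with a threshold of 0.05. In every sentence an adjusted p without another name is limma's, an interval is its 95% interval and ± is its SE unless SD is written. On simulated data for yolk sac CD45- cells with 24578 genes, 70.5% of genes shifted by 2 log2 units and 86.5% of those shifted by 3 were recovered, but only 11.5% of those shifted by 1. A small set of genes was shifted there, and all others had no genotype difference. In the data 41.9% of genes were called in this comparison. The Benjamini-Hochberg cutoff was thus stricter in the simulation, and these shares do not give the recovery in the data.

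The 9 genes, the other gene lists and the alternatives were chosen with earlier results of these data known. From each other list the 3 genes with the largest called differences in each direction could be named, and some results are not reported here. The alternatives were normexp background correction, quantile normalization, a percentile over probes detected on all arrays, no filter and a strict one, a trended robust prior, the mean of a gene's probes, a replicate block, smaller sets of arrays, the deposited value table and leaving out each array. Replicate numbers were not treated as pairs: the labels tie them to no shared litter or day, and the correlation of same-numbered deviations ranged from -0.0474 to 0.385 over pairs of groups.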

Additional observations from a re-analysis of the deposited data

Results flagged for a closer look

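The Tie-2-Etv2 effect on Tfrc in CD45- cells was larger in the yolk sac than in the embryo by 1.53 on the log2 scale, by limma's test of the difference between the 2 effects (adjusted p = 0.00906). The second and the dimmest Tfrc probe differed by 1.35 and 1.23 (adjusted p over all probes 0.0397 and 0.15). The effect on Slc25a37 in CD45- cells differed by -1.47 between yolk sac and embryo (adjusted p = 0.0377), and its second probe by -1.06 (adjusted p over all probes 0.13). The group means of Hba-x had the same order of genotypes as those of Slc25a37 in CD45- cells of both tissues, and the part of red cell RNA in it was not tested. Tissue cannot be told apart from slide and scan for either gene.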

How the results depend on the processing

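The count of the 9 genes called moved by over 1.5 times in these settings. With normexp it was 2 for the CD45 comparison in control yolk sac and 4 for the tissue difference in CD45- cells. With quantile normalization it was 2 for the CD45 comparison in Tie-2-Etv2 embryo and 1 in Tie-2-Etv2 yolk sac. With scaling on detected probes it was 2 in Tie-2-Etv2 embryo and 1 in control embryo. With no filter it was 1 for the tissue difference in CD45- cells, and with a strict filter it was 4 there, 2 for the CD45 comparison in Tie-2-Etv2 embryo and 2 in control yolk sac. With a trended robust prior the 4 counts were 2 in Tie-2-Etv2 embryo, 1 in Tie-2-Etv2 yolk sac, 2 in control yolk sac and 4 for the tissue difference. With the tissue's arrays alone it was 2 for the CD45 comparison in control embryo. With the compared groups alone it was 1 for yolk sac CD45+ genotype, 2 for CD45 in Tie-2-Etv2 embryo, 1 in control embryo and 1 for the tissue difference. With the replicate block it was 2 for CD45 in control yolk sac. The block moved other counts less, to 9 from 8 for yolk sac CD45- genotype and to 3 from 2 for the tissue difference in CD45- cells, where it added Alas2 (adjusted p = 0.0442 and 0.0292). Leaving out 1 array gave 5 to 7 for yolk sac CD45- genotype, 1 to 3 for yolk sac CD45+ genotype, 1 to 4 for CD45 in control embryo, 1 to 2 in control yolk sac, 1 to 2 for the tissue difference in CD45- cells and 0 to 1 in CD45+ cells. Counts over all genes moved in the same settings. For the tissue difference in CD45- cells they were 4996 with normexp, 2526 with no filter and 3754 with a strict filter. They were 4616 there with the trended robust prior, against 3917 in the main fit. For CD45 in control yolk sac they were 8470 with normexp, 7293 with a strict filter and 9690 with the trended robust prior. With the block they were 10447 there, against 9433 in the main fit. The causes were not tested.

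Among the alternative values of single members, 25 turned sign and none of those was called in any setting listed here. They were Ppox in embryo CD45- (-0.0041) and Fech in yolk sac CD45+ (0.029) with normexp, Cpox in embryo CD45+ (0.016) with scaling on detected probes, and with the mean of a gene's probes Tfrc in embryo CD45- (0.21) and CD45+ (0.066) and Uros in embryo CD45+ (0.035) and yolk sac CD45+ (0.077). Leaving out 1 array gave -0.13 to 0.29 for Alad, -0.24 to 0.28 for Ppox and -0.31 to 0.16 for Tfrc in embryo CD45- cells. In embryo CD45+ cells it gave -0.24 to 0.062 for Tfrc, -0.037 to 0.078 for Urod, -0.16 to 0.13 for Cpox, -0.29 to 1.595 for Alas2 and -0.20 to 0.46 for Slc25a37. It gave -0.20 to 0.16 for Uros and -0.13 to 0.12 for Fech in yolk sac CD45+ cells, and -0.25 to 0.15 for the tissue difference of Fech. Of the others, 733 kept direction and side of the threshold, 46 lost a call and 14 gained one.

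Counts over all genes moved as well. With the compared groups alone, limma called 134 genes in embryo CD45- cells (316 with all arrays), 4505 in yolk sac CD45+ cells (8000) and 5265 for CD45 in control embryo (8989). With normexp 1124 were called in embryo CD45+ cells and with the tissue alone 407 (739). With the compared groups alone limma called 0 genes in embryo CD45+ cells and 0 for the tissue difference in CD45+ cells, where 2890 and 3609 had an unadjusted p below 0.05. Leaving out 1 array gave 6590 to 8899 in yolk sac CD45- cells (10287), 285 to 925 in embryo CD45+ cells, 5265 to 7492 in yolk sac CD45+ cells, 1559 to 1879 for CD45 in Tie-2-Etv2 yolk sac, 1500 to 3700 for the tissue difference in CD45- cells and 88 to 1591 in CD45+ cells. With no filter 2526 were called for the tissue difference in CD45- cells (3917) and 321 in CD45+ cells (770). With a strict filter 175 were called in embryo CD45- cells (316) and 1599 for CD45 in Tie-2-Etv2 yolk sac (2553). The share of called genes that were higher also moved with scaling. On detected probes it was 43.0% for CD45 in Tie-2-Etv2 embryo (54.1% as scaled here), 44.1% in control embryo (54.6%), 43.9% in control yolk sac (58.9%), and 31.7% (59.8%) and 24.6% (35.1%) for the tissue differences in CD45- and CD45+ cells. After quantile normalization it was 48.1% for the CD45- tissue difference, and with normexp it was 58.5% in embryo CD45+ cells (76.3%). The precision is limited by 2 arrays a group, and 2 slides carry 1 tissue each.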
